A study of Mus musculus with 2 samples.

Results

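The genes described here are 10 members of the transforming growth factor beta (TGF-beta) pathway, chosen by symbol from the 32285 genes counted in both libraries. They are the ligand Tgfb1, the receptors Tgfbr1 and Tgfbr2, the signal carriers Smad2, Smad3 and Smad4, the inhibitor Smad7, the repressors Ski and Skil, and the response gene Pmepa1. All 10 were found in the gene list of each library, and none of them was used to sort cells into groups. Leukocytes positive for CD45 and CD90.2 (Thy1, carried by T cells and part of the innate lymphocytes) had been sorted by flow cytometry from tumours; the mice were of the inbred C57BL/6 strain. One group was labelled Dapl1-KO, deficient for Dapl1, and the other WT, wild type, with 1 droplet-based 10x Genomics 3′ v3 library each. The study asked how T cells within tumours differ in expression when Dapl1 is missing, with CD8 T cell function and exhaustion as its subject. The tumour line, the ages of the mice, the allele behind the label and the number of animals pooled in each library are not given in the sources used here. With 1 library for each label there is no replicate, so differences carry no test.

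TGF-beta is secreted in a latent form and, once released, binds the type II receptor encoded by Tgfbr2, which then activates the type I receptor encoded by Tgfbr1. The type I receptor phosphorylates SMAD2 and SMAD3, and these join SMAD4 in the nucleus to switch target genes on or off. Smad7, Skil and Pmepa1 are themselves known to be induced by the pathway and act back on it. In lymphocytes the pathway is known for restraining cytotoxic and effector programmes in CD8 T and NK cells and for helping CD4 T cells to take up Foxp3. The libraries hold messenger RNA alone, so neither ligand release nor SMAD phosphorylation was measured.

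Unique molecular identifiers (UMIs, tags that mark each captured RNA molecule) summed to 206322042 over 19662 barcodes in the library labelled Dapl1-KO and to 154408101 over 16673 barcodes in the library labelled WT. Of the barcodes, 13132 occurred in both libraries; only the larger copy of each was kept, which removed 7128 and 5983 barcodes in that order of labels. After filters and doublet removal 10098 cells labelled Dapl1-KO and 8992 cells labelled WT remained, with a median of 8463.5 and 7356 UMIs. Cells were assigned to gates, sets of rules on marker UMIs. CD8 cells had a Cd3 and a Cd8a or Cd8b1 UMI without Cd4 or Foxp3, regulatory T cells had Cd3 and Foxp3 without CD8, conventional CD4 cells had Cd3 and Cd4 without Foxp3 or CD8, and NK cells had Ncr1 or Klrb1c without Cd3, CD8 or Cd4. A cell could hold at most 5 UMIs of 8 genes that mark macrophages, B cells and melanocytes. The 4 lineage gates held 5324 and 4315 CD8 T cells (labelled Dapl1-KO and WT), 560 and 560 conventional CD4 T cells, 734 and 625 regulatory T cells, and 468 and 366 NK cells. Ikzf2, a regulatory T cell transcription factor that was not part of those rules, stood at 925 CPM among cells labelled Dapl1-KO and 778 CPM among cells labelled WT in the regulatory T gate, against 311 and 206 CPM in the CD4 gate, so the CD4 gate was not free of cells with this gene. CPM is a gene's UMIs divided by all UMIs summed over a gate, times 1000000. Ratios between the labels are on the log2 scale, Dapl1-KO over WT, with exact 95% intervals that cover counting error and not the spread between animals. A gene with at least 5 CPM in a library was called higher or lower where its log2 ratio lay at least 0.32 from 0, and genes nearer to 0 are said to be within the limit.

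CD8 cells were split further into 9 states, each taken from the cells left by the one before. Cycling cells had UMIs of at least 2 of Mki67, Top2a, Birc5, Cdk1 and Ccnb2. Granzyme D to G rich cells drew at least 1% of their UMIs from Gzmd to Gzmg. Naive or central memory cells had UMIs of at least 2 of 4 naive cell marker genes without Pdcd1, which encodes PD-1, or Havcr2, which encodes TIM-3. Progenitor-like cells had Pdcd1 and Tcf7 without Havcr2, and the remaining cells with Pdcd1 were split by Havcr2 and then by Gzmk. Effector cells without PD-1 had Ly6c2 or Gzma, and the last state held all other CD8 cells. Regulatory T cells were split into cycling and non-cycling cells by the same cycling genes, which gives 13 gates that share no cell.

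The libraries differed in their cells in ways the label alone does not give. In the CD8 gate, 74.3% of cells labelled Dapl1-KO and 14.7% of cells labelled WT had UMIs of Y-linked genes and none of Xist or Tsix. Cells with Xist or Tsix and no Y-linked UMI numbered 5 and 3078 in that gate, so sex of the donor animals and label cannot be told apart over all cells, and ratios from Y-linked cells alone are given beside many of the main ones. Whether the Y-linked cells labelled WT came from the other library is not known. Naive or central memory cells were 16.2% of the CD8 gate in the library labelled Dapl1-KO and 29.3% in the library labelled WT, and cycling cells were 33.5% and 24.0%. Dapl1 itself did not separate the labels: its level in naive or central memory CD8 cells was 168 CPM among cells labelled Dapl1-KO and 171 CPM among cells labelled WT. These 3′ tags do not show which part of the gene is deleted, so they do not check the label.

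In GRCm38 (GENCODE M21), 7 of the members lie at chr7:25687002-25705077 on the plus strand (Tgfb1), chr4:47353222-47414931 plus (Tgfbr1), chr9:116084293-116175360 minus (Tgfbr2), chr9:63646767-63757994 minus (Smad3), chr4:155154075-155222592 minus (Ski), chr3:31095058-31122577 plus (Skil) and chr2:173224458-173276533 minus (Pmepa1). All are protein-coding, and none shares an exon with another gene on its strand in that annotation, so their counts were not split with an overlapping gene. The 250 bases before the transcription start were read from RefSeq (GRCm38.p6) for 5 of the 10 members. They were searched on both strands for AGAC, the core of the box that SMAD3 and SMAD4 bind, for its longer forms CAGAC and GTCTAGAC, which both hold AGAC, and for TGANTCA, the AP-1 site. The promoters of the ligand, the ligand-binding receptor and a signal carrier are given, 3 genes called higher in naive or central memory CD8 cells and whose RefSeq start lay within 3 bases of the GENCODE start. Each runs 5′ to 3′ on the gene's strand, with AGAC in capitals, at chr7:25686752-25687001 (Tgfb1, plus strand), chr9:116175364-116175613 (Tgfbr2, minus) and chr9:63757995-63758244 (Smad3, minus).
Tgfb1: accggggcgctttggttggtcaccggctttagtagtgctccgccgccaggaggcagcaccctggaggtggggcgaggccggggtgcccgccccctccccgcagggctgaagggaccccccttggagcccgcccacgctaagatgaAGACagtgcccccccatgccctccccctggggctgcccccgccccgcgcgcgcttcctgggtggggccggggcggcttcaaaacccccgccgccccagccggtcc
Tgfbr2: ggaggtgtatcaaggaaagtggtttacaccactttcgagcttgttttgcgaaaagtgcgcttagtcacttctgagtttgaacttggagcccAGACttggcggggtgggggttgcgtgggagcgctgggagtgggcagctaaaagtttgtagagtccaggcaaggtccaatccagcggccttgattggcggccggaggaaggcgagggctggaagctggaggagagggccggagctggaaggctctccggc
Smad3: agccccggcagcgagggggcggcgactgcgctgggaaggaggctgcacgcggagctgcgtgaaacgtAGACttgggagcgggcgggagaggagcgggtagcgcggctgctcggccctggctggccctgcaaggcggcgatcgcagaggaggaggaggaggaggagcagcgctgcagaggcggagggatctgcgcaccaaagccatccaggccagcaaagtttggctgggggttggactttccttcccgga
Each of these windows held 1 AGAC, and the match in Tgfbr2 was part of a CAGAC. The windows of Tgfbr1 and Ski held 0. Of 32851 RefSeq promoters of the same length, 82.9% held AGAC and 42.2% held CAGAC, so a match is common. GTCTAGAC was in 0.167% and TGANTCA in 6.75% of promoters and in none of the 5 windows of members. The G and C content was 75.2% for Tgfb1, 58.4% for Tgfbr2 and 69.2% for Smad3.

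Across the gates, the ligand and the downstream genes ran in different orders. Tgfb1 was highest in NK cells and lowest in naive or central memory CD8 cells. By geometric mean over the libraries, Smad7 was highest in naive or central memory CD8 cells, and Ski, Skil and Pmepa1 were highest in conventional CD4 cells. Among CD8 states, Tgfbr1, Smad3, Smad7, Ski, Skil and Pmepa1 were all lowest in cells rich in granzymes D to G and next lowest in cycling cells (geometric means over the libraries).

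**Figure D1:**
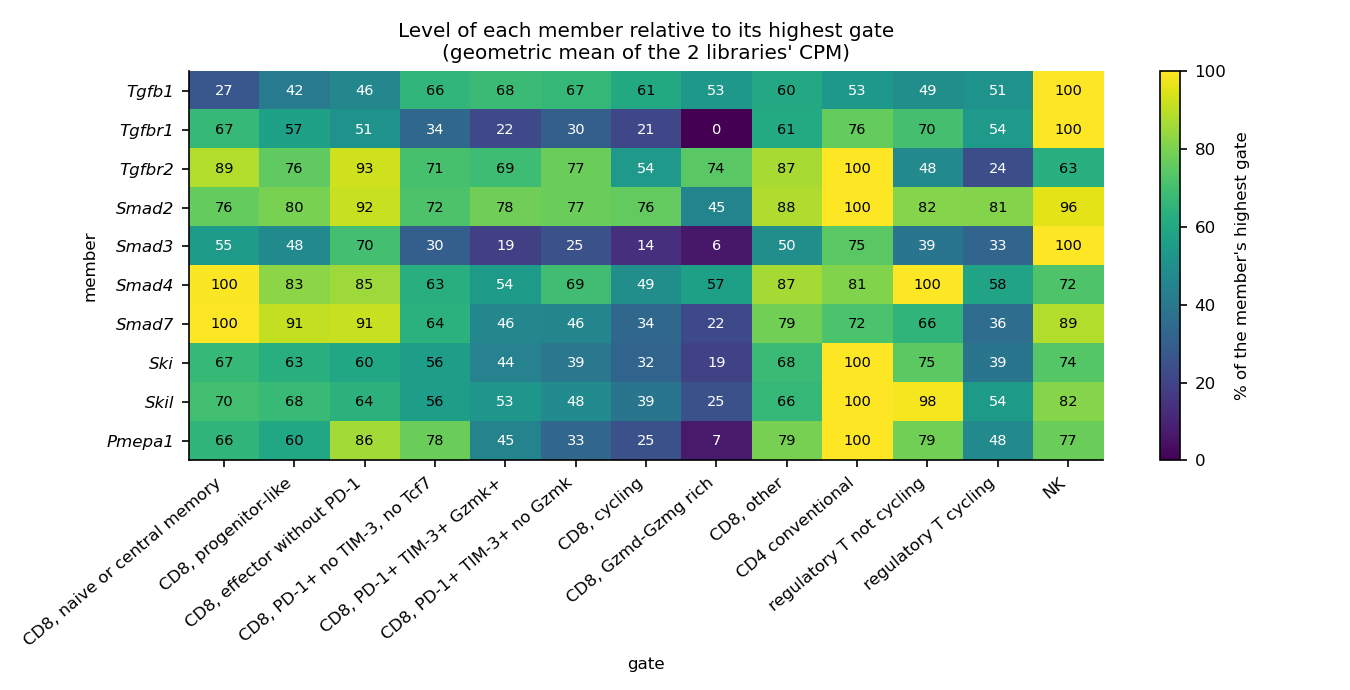
Level of each of the 10 members in 13 gates that share no cell, as a percentage of the member's own highest gate (geometric mean of the CPM of the 2 libraries, colour scale from 0 to 100%). Rows can be read along the gates and not against each other; Tgfb1 peaks in NK cells and reaches 27% of that level in naive or central memory CD8 cells, while Pmepa1 reaches 7% of its CD4 level in granzyme D to G rich cells. The 0 for Tgfbr1 reflects 2 UMIs in the library labelled Dapl1-KO and 0 in the library labelled WT.

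Tgfb1, the ligand, had its highest level in NK cells, with 258 CPM among cells labelled Dapl1-KO and 210.3 CPM among cells labelled WT. Conventional CD4 cells held 127 and 121 CPM, regulatory T cells 126 and 107 CPM, and the CD8 gate as a whole 152 and 113 CPM (labelled Dapl1-KO, then WT). The NK level stood above every other gate in both libraries. Within CD8 cells the ligand was lowest in cells with a naive or memory profile. Naive or central memory cells held 73.1 CPM among cells labelled Dapl1-KO and 54.4 CPM among cells labelled WT. Progenitor-like cells, which carry PD-1 and Tcf7 without TIM-3, held 97.4 and 95.9 CPM. The gates without PD-1 did not all lie below the PD-1 gates: effector cells held 123 and 94.8 CPM and other CD8 cells 171 and 115 CPM. The 3 PD-1 gates without Tcf7 or with TIM-3 ranged over 172 to 178 CPM among cells labelled Dapl1-KO and 135 to 146 CPM among those labelled WT. Their ranges overlapped each other, so no order among them holds beyond the spread of the libraries. The NK level was 3.69-fold that of naive or central memory cells and 1.65-fold that of cycling CD8 cells (geometric means over the libraries).

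Between the labels, Tgfb1 was higher in the CD8 gate of the library labelled Dapl1-KO, at 152 CPM among cells labelled Dapl1-KO and 113 CPM among cells labelled WT. The log2 ratio was 0.44, 95% interval 0.40 to 0.48. Tgfb1 was called higher in 6 of 9 CD8 states and lower in 0. Cycling cells held 163 CPM among cells labelled Dapl1-KO and 122 CPM among cells labelled WT, effector cells without PD-1 differed by a log2 ratio of 0.37 (0.17 to 0.58), and naive or central memory cells by a log2 ratio of 0.43 (0.26 to 0.59). The 3 states within the limit were progenitor-like cells (0.022), PD-1 TIM-3 cells with Gzmk (0.23) and granzyme D to G rich cells (-0.089), where the level was 119.9 against 128 CPM. Among Y-linked cells alone the CD8 log2 ratio was 0.68, 0.58 to 0.78, and the level labelled Dapl1-KO was above the level labelled WT in 9 of 9 states. In conventional CD4, regulatory T and NK cells the log2 ratio was 0.081, 0.24 and 0.29, all within the limit, and among Y-linked cells it was 0.55, 0.73 and -0.034.

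**Figure D2:**
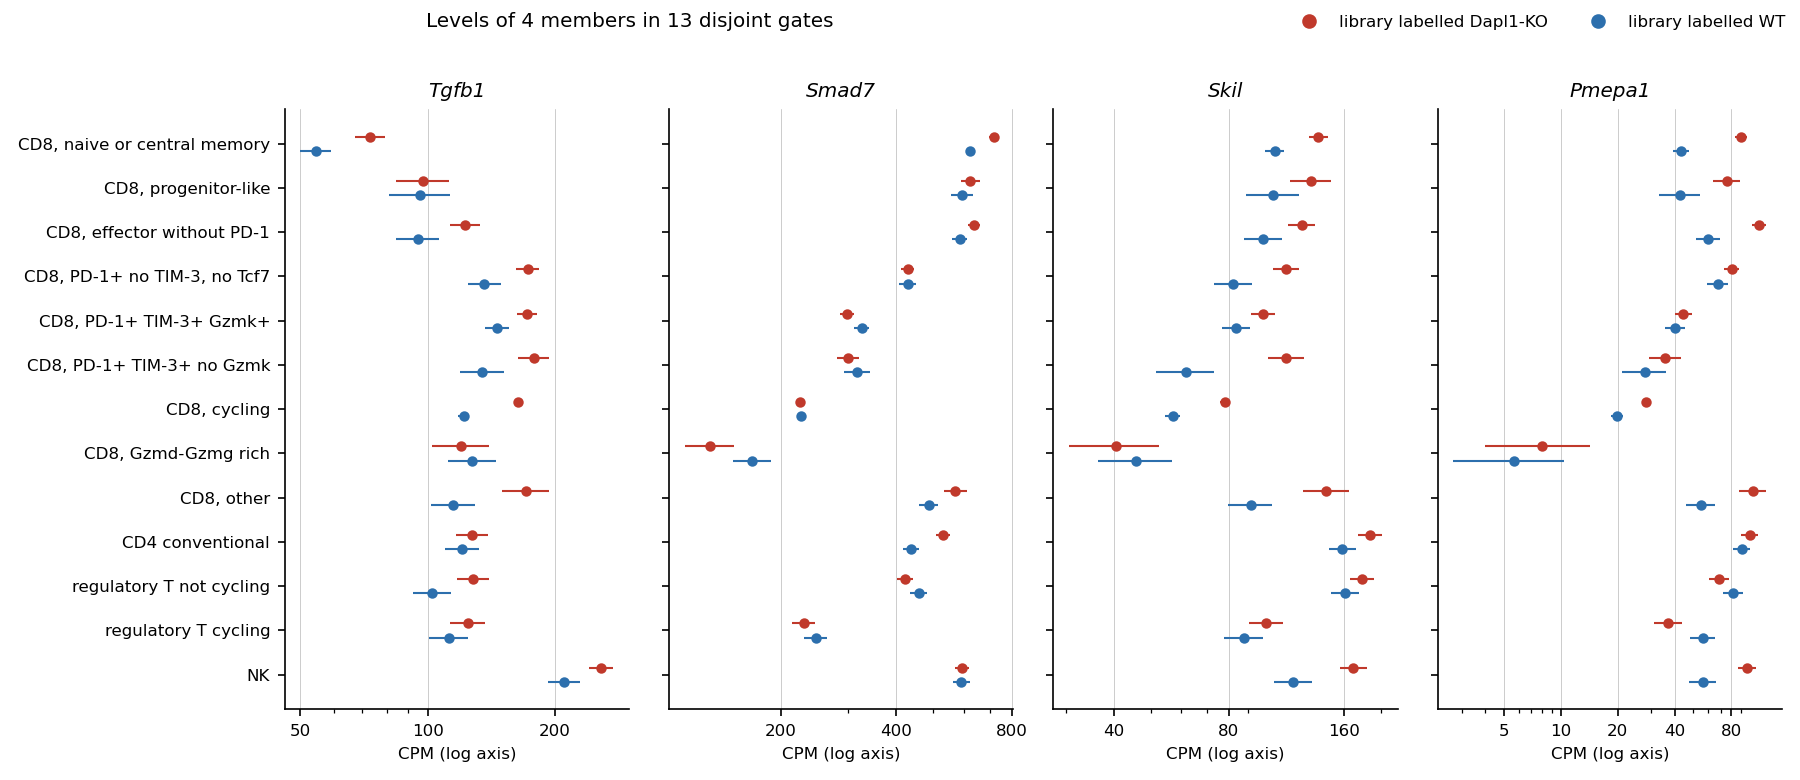
Levels of Tgfb1, Smad7, Skil and Pmepa1 in the 13 gates (CPM, log axes that differ between panels), with the library labelled Dapl1-KO above the library labelled WT in each row. Bars are exact 95% Poisson intervals for counting error. Tgfb1 stands lowest in naive or central memory CD8 cells and highest in NK cells in both libraries, whereas Smad7 stands highest in naive or central memory CD8 cells; Pmepa1 in those cells is 89.8 CPM labelled Dapl1-KO and 43.3 CPM labelled WT.

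Tgfbr2, the receptor that binds the ligand, was highest in conventional CD4 cells, with 69.5 CPM among cells labelled Dapl1-KO and 67.1 CPM among cells labelled WT. Effector CD8 cells without PD-1 held 72.8 and 55.1 CPM and naive or central memory CD8 cells 68.3 and 53.6 CPM, and these 3 gates overlapped. Regulatory T cells stood apart at the low end: non-cycling ones held 32.1 and 33.4 CPM, and cycling ones held 18.1 and 15.0 CPM, the lowest of 13 gates in both libraries. The highest gate was 4.14-fold above cycling regulatory T cells. NK cells held 45.0 and 41.5 CPM. Tgfbr2 was not called in any lineage gate, with log2 ratios up to 0.19. Among CD8 states it was called higher in 4 of 9, namely naive or central memory (0.35, 0.18 to 0.52), progenitor-like (0.38, -0.063 to 0.83), PD-1 without TIM-3 (0.44, 0.16 to 0.73) and effector without PD-1 (0.40, 0.13 to 0.68). Among Y-linked cells 2 of 9 states were called higher, the CD8 ratio was -0.070, and the state of PD-1 without TIM-3 turned to -0.22.

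Tgfbr1, the signalling receptor, was sparsely counted. NK cells held 15.3 CPM among cells labelled Dapl1-KO and 13.6 CPM among cells labelled WT, from 52 and 35 UMIs, the highest of 13 gates. Naive or central memory CD8 cells held 9.38 and 9.98 CPM, and cycling CD8 cells 3.29 and 2.85 CPM. It was under the 5 CPM limit in the CD8 gate as a whole, at 4.41 and 4.71 CPM, and was not called there. In regulatory T cells it was lower in the library labelled Dapl1-KO, with 7.24 CPM, against 11.2 CPM in the library labelled WT (log2 ratio -0.63, -1.16 to -0.11), from 55 and 75 UMIs. With Y-linked cells alone that ratio turned to 0.29, on 2 UMIs in the library labelled WT. The lower call in CD4 cells (-0.50) had an interval that spans 0.

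Smad2 was the flattest member. Its level in the CD8 gate was 16.2 CPM in either library, and 12 of 13 gates lay between 14.5 and 22.7 CPM in both libraries. Granzyme D to G rich cells were below that, at 10.8 and 8.47 CPM, from 15 UMIs in each library. No lineage gate was called for Smad2, and all 3 calls among the 13 gates had intervals that span 0. Among Y-linked cells the CD8 ratio was -0.030, -0.28 to 0.23.

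Smad3, a carrier that binds DNA directly, varied far more. NK cells held 22.6 CPM among cells labelled Dapl1-KO and 18.2 CPM among cells labelled WT, conventional CD4 cells 19.8 and 11.6 CPM, and effector CD8 cells without PD-1 18.2 and 11.2 CPM. Cycling CD8 cells held 2.99 and 2.65 CPM, 7.23-fold below NK cells, and granzyme D to G rich cells had 1 and 4 UMIs. Smad3 was thus low in cycling cells, where Tgfb1 was not. In conventional CD4 cells labelled Dapl1-KO, Smad3 was higher by a log2 ratio of 0.78 (0.23 to 1.34), on 77 and 45 UMIs. In effector CD8 cells without PD-1 the ratio was 0.71 (0.12 to 1.32), and in PD-1 cells without TIM-3 it was 0.84 (0.014 to 1.73). Over the 6 CD8 states where it reached 5 CPM it was called higher in 4 and lower in 2, progenitor-like (-0.41, -1.47 to 0.65) and PD-1 TIM-3 without Gzmk (-0.62, -1.88 to 0.63). Only 4 UMIs came from Y-linked CD4 cells labelled WT, so the CD4 difference could not be followed in Y-linked cells.

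Smad4, the partner shared by all SMAD signals, was the only member called lower in the whole CD8 gate of the library labelled Dapl1-KO. The CD8 gate held 26.5 CPM among cells labelled Dapl1-KO and 35.0 CPM among cells labelled WT, a log2 ratio of -0.40 (-0.49 to -0.32). By state, the level was 43.1 against 56.1 CPM in naive or central memory cells, 21.3 against 28.1 CPM in cycling cells and 24.0 against 30.2 CPM in PD-1 TIM-3 cells with Gzmk (labelled Dapl1-KO first). It was called lower in 5 of 9 CD8 states and higher in 0; the intervals of granzyme D to G rich (-1.05 to 0.25) and other CD8 cells (-0.93 to 0.043) span 0. The exceptions in direction were PD-1 cells without TIM-3, at 32.1 and 30.2 CPM, and PD-1 TIM-3 cells without Gzmk, at 37.1 and 31.6 CPM. With Y-linked cells alone the CD8 ratio was -0.69, -0.86 to -0.53, further from 0 than with all cells, and 5 of 9 states were called lower. Within the library labelled WT, Y-linked CD8 cells had 41.6 CPM and Xist cells 32.8 CPM. Regulatory T cells held 36.8 and 42.7 CPM, conventional CD4 cells 38.1 and 42.1 CPM and NK cells 35.6 and 36.1 CPM, none of them called.

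Smad7, the inhibitory SMAD that brings ubiquitin ligases to the receptor, varied with CD8 state. Naive or central memory cells held 717 CPM among cells labelled Dapl1-KO and 624 CPM among cells labelled WT, effector cells without PD-1 639 and 585 CPM, and progenitor-like cells 624 and 592 CPM. PD-1 cells without TIM-3 held 429 and 428 CPM, PD-1 TIM-3 cells with Gzmk 297 and 325 CPM, cycling cells 225 and 226 CPM, and granzyme D to G rich cells 131 and 169 CPM. The ranges of the naive or central memory, effector and progenitor-like gates overlapped, as did those of both TIM-3 gates, and each of these sets stood clear of the next. The highest level was 4.50-fold the lowest. NK cells, with 594 and 591 CPM, lay beside the naive end, and regulatory T cells were split, at 421 and 458 CPM without cycling markers and 229.8 and 247 CPM with them. Between the labels, 12 of 13 gates were within the limit. The exception was granzyme D to G rich cells, with a log2 ratio of -0.37 (-0.64 to -0.097), and the CD8 gate as a whole gave -0.078. Among Y-linked cells the granzyme D to G rich ratio was -0.021, and 4 of 13 gates were called higher, among them naive or central memory (0.36, 0.26 to 0.46) and other CD8 cells (0.43, 0.17 to 0.70). In regulatory T cells the ratio of -0.11 became 0.67 with Y-linked cells alone, of which the library labelled WT had 22.

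Ski and Skil encode related repressors that hold SMAD targets silent until the pathway degrades them. Ski was highest in conventional CD4 cells, with 53.0 CPM among cells labelled Dapl1-KO and 41.6 CPM among cells labelled WT, 3.11-fold its level in cycling CD8 cells, which held 15.9 and 14.4 CPM. Skil was highest in conventional CD4 cells, at 187 and 159 CPM, and in non-cycling regulatory T cells, at 179 and 162 CPM, which overlapped. Cycling CD8 cells held 78.2 and 57.1 CPM of Skil and granzyme D to G rich cells 40.5 and 45.7 CPM, the lowest gates in both libraries. The levels of both repressors thus ran down together from CD4 and NK cells to dividing and granzyme-rich CD8 cells.

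Skil stood higher under the Dapl1-KO label in CD8 and NK cells. The CD8 gate held 93.0 CPM among cells labelled Dapl1-KO and 72.9 CPM among cells labelled WT (log2 ratio 0.35, 0.30 to 0.40), and the NK gate 169.6 CPM among cells labelled Dapl1-KO and 118 CPM among cells labelled WT (0.52, 0.32 to 0.73; 0.96, 0.14 to 1.93 among Y-linked cells). It was called higher in 7 of 9 CD8 states, among them naive or central memory (0.38), cycling (0.45) and PD-1 TIM-3 without Gzmk, where 113 against 61.8 CPM gave 0.87 (0.57 to 1.17). PD-1 TIM-3 cells with Gzmk were within the limit at 0.23, and granzyme D to G rich cells were at -0.18. With Y-linked cells alone the CD8 ratio was 0.26, 0.15 to 0.38, under the limit, with 6 of 9 states called. Ski was called higher in 5 of 9 CD8 states, at 38.5 against 25.7 CPM in naive or central memory cells (0.58, 0.34 to 0.82), 36.4 against 21.7 CPM in effector cells without PD-1 (0.75, 0.33 to 1.18) and 38.1 against 23.0 CPM in progenitor-like cells. It was lower in granzyme D to G rich cells, on 8 and 25 UMIs. Over the whole CD8 gate, where cycling cells hold most UMIs, the Ski ratio was 0.22 and within the limit. In Y-linked cells alone, Ski was called higher in 3 states and lower in 3.

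Pmepa1 encodes a membrane protein that is induced by TGF-beta and keeps SMAD2 and SMAD3 from the receptor. By the geometric mean of the libraries it was highest in conventional CD4 cells, with 99.9 CPM among cells labelled Dapl1-KO and 90.7 CPM among cells labelled WT. That range overlapped those of effector CD8 cells without PD-1, at 112 and 60.0 CPM, and of other CD8 cells, and both of these stood above the CD4 level in the library labelled Dapl1-KO. The level was 80.4 and 67.7 CPM in PD-1 cells without TIM-3, 44.6 and 40.4 CPM in PD-1 TIM-3 cells with Gzmk, 35.7 and 27.8 CPM without Gzmk, 28.3 and 19.8 CPM in cycling cells and 7.95 and 5.64 CPM in granzyme D to G rich cells. Each step down that row stood below the one before it in both libraries, although the range of the TIM-3 gate without Gzmk overlapped that of cycling cells. The CD4 level was 14.2-fold that of granzyme D to G rich cells.

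Among ratios of members with over 100 UMIs in a library, the largest was that of Pmepa1 in naive or central memory CD8 cells. It stood there at 89.8 CPM among cells labelled Dapl1-KO and 43.3 CPM among cells labelled WT, a log2 ratio of 1.05 (0.88 to 1.22). Effector cells without PD-1 gave 0.90 (0.66 to 1.15), progenitor-like cells held 75.7 and 42.7 CPM (0.83, 0.40 to 1.27), and cycling cells gave 0.52 (0.39 to 0.65). Among Y-linked cells the effector ratio was 2.11 (0.97 to 3.57), and the progenitor-like ratio was 0.048, within the limit and with an interval that spans 0. Those of PD-1 cells without TIM-3 and PD-1 TIM-3 cells with Gzmk were -0.62 and -0.56. Pmepa1 was called higher in 7 of 9 CD8 states, and its level labelled Dapl1-KO was above that labelled WT in 9 of 9; with Y-linked cells alone it was above in 5 and below in 4. In the CD8 gate 45.5 CPM among cells labelled Dapl1-KO and 31.7 CPM among cells labelled WT gave 0.52 (0.44 to 0.60), and with Y-linked cells alone 0.050, -0.11 to 0.21. NK cells held 96.4 CPM among cells labelled Dapl1-KO and 56.3 CPM among cells labelled WT, a ratio of 0.78 (0.49 to 1.07). Regulatory T cells ran the other way, at 53.8 CPM among cells labelled Dapl1-KO and 69.6 CPM among cells labelled WT (-0.37, -0.57 to -0.18). Cycling regulatory T cells held 37.1 against 56.3 CPM (-0.60) and non-cycling ones 68.7 against 81.7 CPM (-0.25, within the limit). Among Y-linked cells the regulatory T ratio was -0.69, -1.23 to -0.091, and conventional CD4 cells, at 0.14 with all cells, gave -0.039.

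The share of cells with at least 1 Pmepa1 UMI followed the same pattern. After each cell was thinned to 3000 UMIs, 20.9% of naive or central memory CD8 cells labelled Dapl1-KO (18.3 to 23.8%) and 12.3% of those labelled WT (10.5 to 14.2%, exact binomial intervals) had a Pmepa1 UMI, against 45.0% and 24.4% without thinning. In NK cells the thinned shares were 24.8% and 15.5%, and in regulatory T cells 14.9% and 19.4%. A Smad7 UMI was found in 83.9% and 73.2% of thinned naive or central memory cells and in 49.9% and 47.3% of thinned cycling CD8 cells. Thinning left out 10 and 9 cells of the naive or central memory gate, 9 and 18 NK cells, 49 and 53 regulatory T cells and 2 and 2 cycling CD8 cells. None of the gated cell types is known to lack these genes, so no background share from free RNA can be set beside these.

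Counted by lineage gate, few members were called, at rates read against all genes. In the CD8 gate 3 of 9 measured members were higher (Tgfb1, Skil and Pmepa1), where 12.7% of all measured genes were, and 1 was lower (Smad4), where 11.2% of genes were. In conventional CD4 cells 2 of 10 were higher (Smad3 and Ski) and 1 lower (Tgfbr1), against 17.4% and 18.8% of genes. In regulatory T cells 0 were higher and 2 lower (Tgfbr1 and Pmepa1), against 9.49% and 17.5% of genes. In NK cells 2 were higher (Skil and Pmepa1) and 0 lower, against 16.1% and 21.8% of genes. With Y-linked cells alone, 5 members were higher in regulatory T cells, where 31.7% of genes were, and with TMM scaling 5 were higher in NK cells, where 19.3% of genes were. The median log2 ratio of measured members was 0.19 in CD8, 0.17 in CD4, -0.16 in regulatory T and 0.23 in NK cells, beside 0.019, 0.013, -0.057 and -0.022 over all genes measured. Of the 11 calls in the 4 gates, 10 had intervals that leave out 0.

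**Figure D3:**
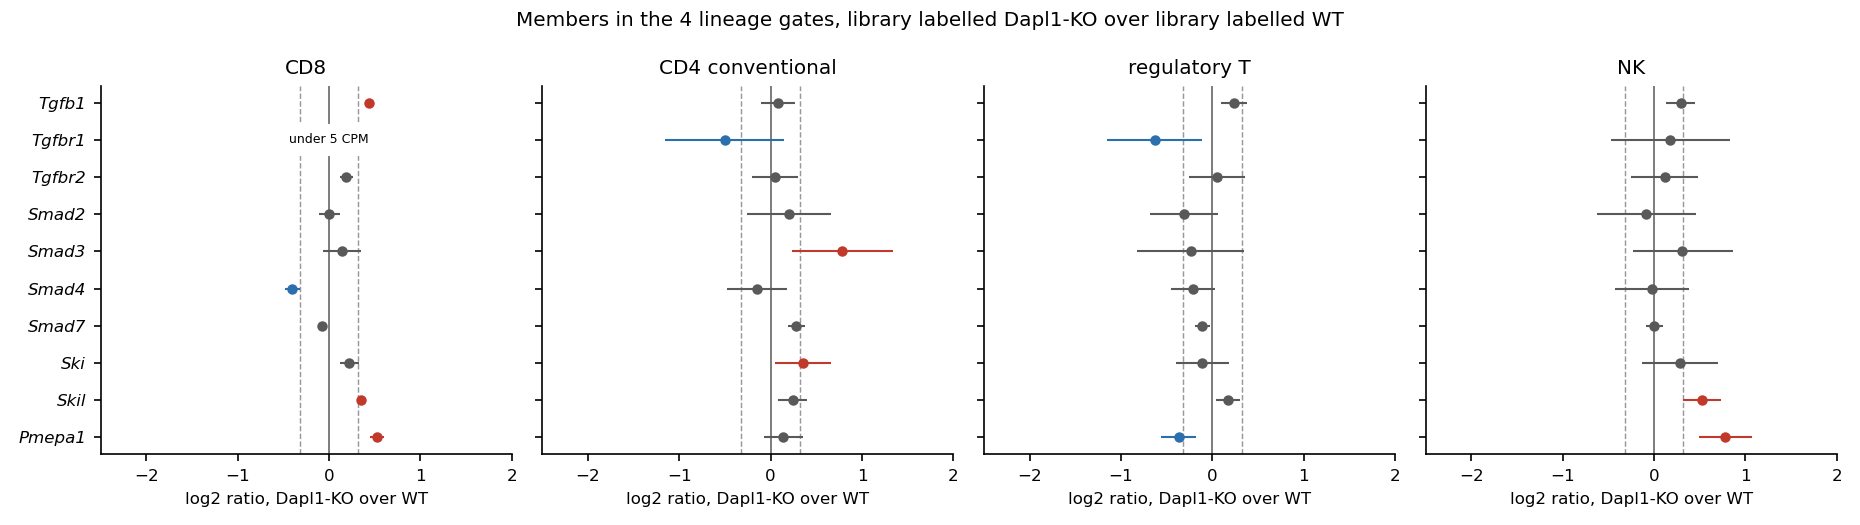
Log2 ratio between the libraries (label Dapl1-KO over label WT) for the 10 members in the 4 lineage gates, with exact 95% intervals for counting error; dashed lines mark 0.32 either side of 0, red points were called higher, blue points called lower, and members under 5 CPM are named as such. Pmepa1 lies at 0.52 in CD8, -0.37 in regulatory T and 0.78 in NK cells.

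By CD8 state the counts were as follows. In effector cells without PD-1, 7 of 10 members were higher and 0 lower, where 22.5% and 17.5% of genes were called. In naive or central memory cells 6 of 10 were higher (Tgfb1, Tgfbr2, Smad3, Ski, Skil and Pmepa1) and 1 lower (Smad4), against 21.3% and 19.6%. In PD-1 cells without TIM-3, 6 of 10 were higher and 0 lower, against 23% and 15.8%, and in progenitor-like cells 5 of 10 were higher and 1 lower, against 24.9% and 24.6%. The median log2 ratio of measured members in these 4 states was 0.36, 0.36, 0.33 and 0.20, beside medians over all genes of 0.062, 0.020, 0.063 and 0.019. PD-1 TIM-3 cells with Gzmk had 0 of 8 measured members higher and 1 lower, against 16.4% and 17.7%. Those without Gzmk had 4 of 10 higher and 2 lower, against 25.3% and 18.9%. Cycling cells, which hold 54933828 and 34751604 UMIs and so the narrowest intervals, had 3 of 8 higher and 1 lower, against 8.68% and 11.4%. Granzyme D to G rich cells (52 and 70 cells) had 2 of 8 higher and 3 lower, against 23.8% and 31.9%, and other CD8 cells 4 of 10 higher and 2 lower, against 31.8% and 18.7%. Cycling regulatory T cells had 0 higher and 4 lower of 10 (Tgfbr1, Smad2, Ski and Pmepa1), against 14.5% and 20.6%, and non-cycling ones 1 of each, against 11.7% and 23.9%. Over the 9 CD8 states, 32 of 48 calls had intervals that leave out 0. Differences between states in these ratios were not tested.

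**Figure D4:**
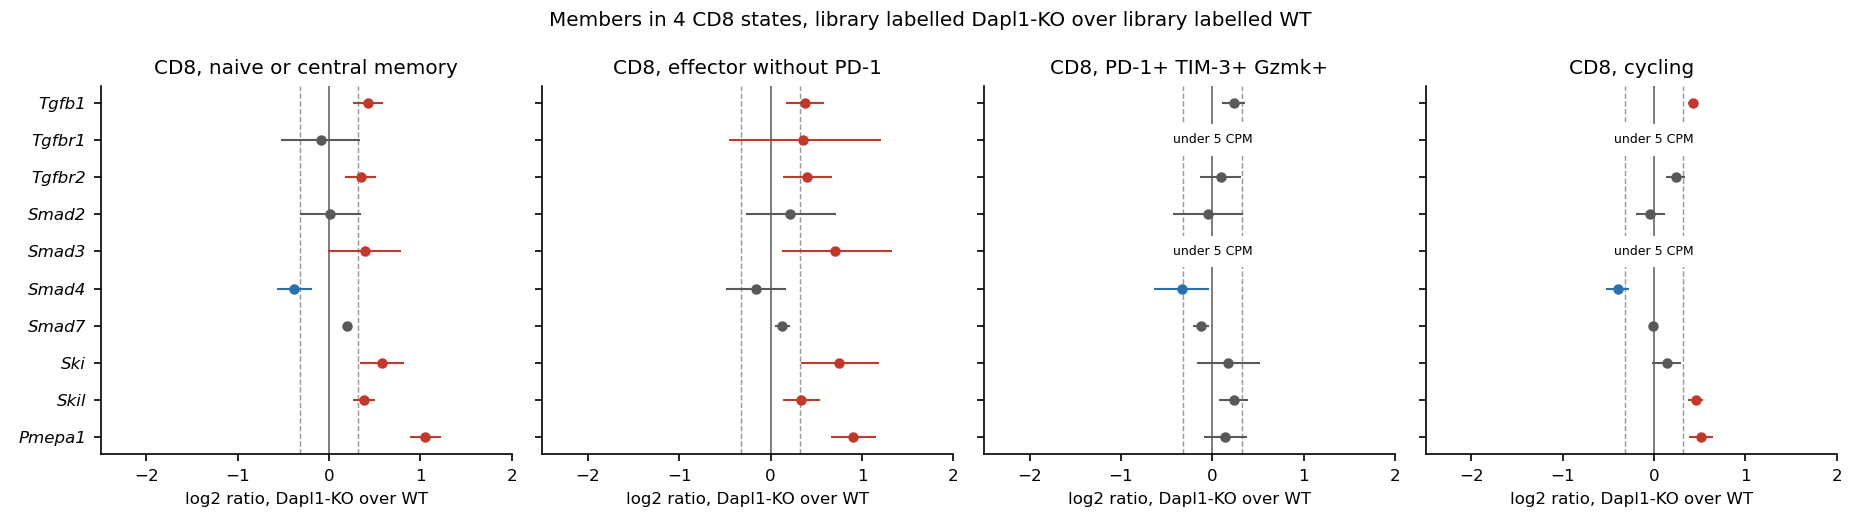
The same log2 ratios in 4 CD8 states, with exact 95% counting intervals, dashed lines 0.32 either side of 0, red points for members called higher and blue points for those called lower. Pmepa1 is at 1.05 in naive or central memory cells and 0.90 in effector cells without PD-1, against 0.14 in PD-1 TIM-3 cells with Gzmk; Smad4 is called lower in 3 of the 4 states.

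The library labelled WT held enough cells of either sex signature to compare them with each other inside 1 library. In its CD8 gate Pmepa1 stood at 39.5 CPM in Y-linked cells and 28.9 CPM in Xist cells (log2 ratio 0.45, 0.28 to 0.62), and Tgfb1 at 96.5 and 115 CPM (-0.25, -0.36 to -0.14). In cycling CD8 cells of that library Pmepa1 stood at 32.3 and 17.6 CPM (0.88, 0.57 to 1.18), a larger gap than the one between the labels. The Y-linked value rested on 112 UMIs, and 1 cycling cell with fibroblast genes in that library held 47 Pmepa1 UMIs. On which side of the split that cell fell was not determined. In naive or central memory cells it was the other way, at 33.0 and 46.0 CPM (-0.48, -0.89 to -0.081). Of 8 members measured in that CD8 comparison, 2 were called higher in Y-linked cells and 0 lower, where 11.4% of all genes measured were higher and 18.6% lower. Between the labels and among Y-linked cells alone, Pmepa1 in naive or central memory cells was 90.0 CPM labelled Dapl1-KO and 33.0 CPM labelled WT (1.45, 1.07 to 1.85), and in cycling cells 27.6 and 32.3 CPM (-0.23, -0.50 to 0.065). The naive or central memory difference was thus as large within Y-linked cells, while the cycling one was not seen in them. The cell with fibroblast genes was not left out of the Y-linked values of the cycling gate or the whole CD8 gate. Its part in them was not tested. Y-linked cells labelled WT numbered 230 in the naive or central memory gate and 123 in the cycling gate, but 53 in the CD4, 22 in the regulatory T and 17 in the NK gate. Over all measured genes of the CD8 gate, 28.7% were called higher and 19.9% lower in Y-linked cells labelled Dapl1-KO against those labelled WT. The sources used here do not say whether the Y-linked and Xist cells labelled WT came from different animals. Nor is it known whether the Y-linked cells labelled WT came from the other library, with which 13132 barcodes were shared. Ratios among Y-linked cells compare the labels only if they did not, and this was not tested.

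**Figure D5:**
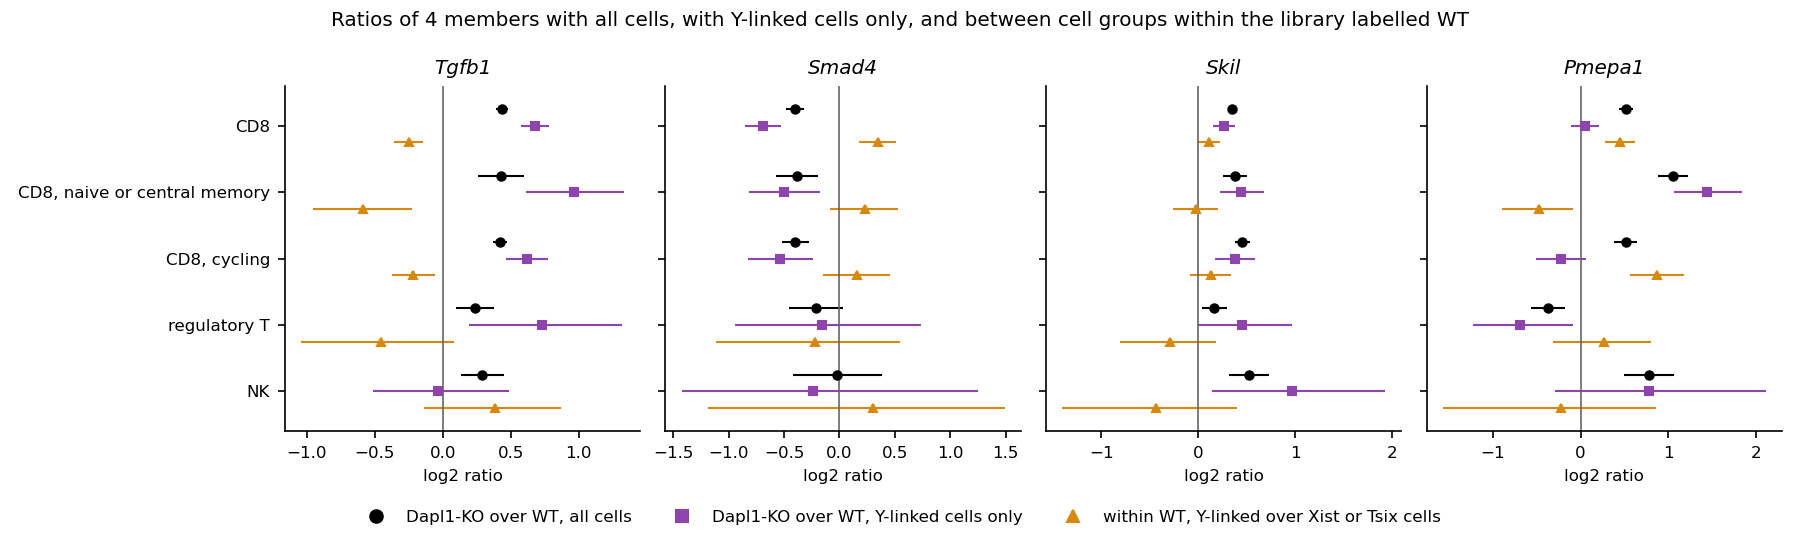
Log2 ratios of Tgfb1, Smad4, Skil and Pmepa1 in 5 gates: label Dapl1-KO over label WT with all cells (black circles) and with Y-linked cells only (purple squares), and Y-linked over Xist or Tsix cells inside the library labelled WT (orange triangles), with exact 95% counting intervals. For Pmepa1 in the CD8 gate these are 0.52, 0.050 and 0.45, and for Tgfb1 they are 0.44, 0.68 and -0.25.

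Of genes outside the members, those known to be lowered by TGF-beta in lymphocytes included cytotoxic genes that stood higher under the Dapl1-KO label. In the CD8 gate 4 of 8 measured were higher and 0 lower, where 12.7% and 11.2% of all genes were. Naive or central memory cells were a smaller part of that gate under the Dapl1-KO label, as given above. By state, PD-1 TIM-3 cells without Gzmk had 3 higher and 3 lower of 8, where 25.3% and 18.9% of all genes were. Cycling, progenitor-like and PD-1 cells without TIM-3 had 4 of 8, 5 of 7 and 4 of 8 higher and 1 lower each. The shares of all genes in these states were 8.68% and 11.4%, 24.9% and 24.6%, and 23% and 15.8%. Naive or central memory cells had 6 of 7 higher and 0 lower, against 21.3% and 19.6%. Effector cells without PD-1, whose rule uses Gzma, had 5 of 8 and 0, against 22.5% and 17.5%. Granzyme D to G rich cells had 5 of 8 and 0, against 23.8% and 31.9%. PD-1 TIM-3 cells with Gzmk had 4 of 8 and 0, against 16.4% and 17.7%. Other CD8 cells had 3 of 7 and 0, against 31.8% and 18.7%. Gzma and Gzmb, serine proteases of cytotoxic granules, stood at 337 CPM among cells labelled Dapl1-KO and 121 CPM among cells labelled WT (1.48) and at 1859 and 1059 CPM (0.81). Prf1, which forms pores in target cells, held 433 and 218 CPM (0.99), and the cytokine gene Ifng 322 and 196 CPM (0.72). Among Y-linked CD8 cells these ratios were 3.66 for Gzma, 1.13 for Gzmb, 1.79 for Prf1 and 1.26 for Ifng, and 5 of 8 of the list were higher, where 28.7% of all genes were. Tbx21, Klrg1 and Fasl were within the limit, and Eomes was too, at -0.30. In CD4 cells 7 of 9 were higher and 0 lower, where 17.4% and 18.8% of all genes were. The growth factor gene Il2 stood there at 68.0 and 7.45 CPM (3.19), and Y-linked CD4 cells held 260 and 0 Il2 UMIs. In NK cells 4 of 8 were higher (Klrg1, Gzma, Gzmb and Prf1) and 0 lower, where 16.1% and 21.8% of all genes were. Regulatory T cells had 3 of 6 higher and 1 lower, where 9.49% and 17.5% of all genes were. The lower one was Gzma, with 58.5 and 77.8 CPM (-0.41). Among Y-linked cells that ratio turned to 2.21, on 4 UMIs labelled WT.

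Genes known to be raised by TGF-beta showed no common direction. In the CD8 gate 1 of 6 measured was higher and 1 lower: Tgfbi, a secreted matrix protein, from 700 and 99 UMIs (2.39), and Id3, an inhibitor of E proteins that marks memory-prone cells, at 18.8 and 49.3 CPM (-1.39). Tgfbi was higher in all 4 lineage gates, in conventional CD4 cells at 39.4 and 4.88 CPM (3.01), and Id3 lower in CD4 (-0.85) and NK cells (-1.14). Among Y-linked CD8 cells the ratio was 2.98 for Tgfbi, on 9 UMIs labelled WT, and -1.66 for Id3. Junb, Klf10 and Cdkn1a, all targets of SMADs, were within the limit in CD8 cells, Cdkn1a being higher in NK cells at 136 and 98.9 CPM (0.46). Counts for this list were 2 higher and 2 lower of 8 in CD4, 2 and 1 of 7 in regulatory T and 3 and 1 of 6 in NK cells. Of all genes, 12.7% were higher and 11.2% lower in CD8 and 17.4% and 18.8% in CD4 cells. The shares were 9.49% and 17.5% in regulatory T and 16.1% and 21.8% in NK cells. Tgfbi is also known from macrophages, and macrophage marker genes summed to 46.6 and 27.5 CPM in the CD4 gate and to 26.3 and 26.0 CPM in the CD8 gate; their part in the result was not tested.

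Few other genes of the pathway were called in CD8 cells, where 12.7% of all measured genes were higher and 11.2% lower. The counts below are to be read against these shares. In the other gates the shares were 17.4% and 18.8% (CD4), 9.49% and 17.5% (regulatory T) and 16.1% and 21.8% (NK). Among genes for ligands and their release, 0 of 4 measured in CD8 cells were higher and 1 lower, Furin, a protease that cuts the TGF-beta precursor, at 19.4 and 25.3 CPM (-0.38; -0.48 among Y-linked cells). Regulatory T cells carried the release machinery: Lrrc32 (GARP, which holds latent TGF-beta on the surface) at 50.8 and 53.1 CPM, and the integrin genes Itgb8 at 37.0 and 42.5 and Itgav at 337 and 369.8 CPM, none of them called. With Y-linked cells alone their ratios were 1.53, 2.04 and 0.29, on 6, 3 and 98 UMIs labelled WT. In CD8 cells Lrrc32 was 0.671 and 0.815 CPM and Itgb8 1.20 and 0.891 CPM. Itgav was not limited to regulatory T cells. Among Y-linked cells it stood at 326 and 266 CPM in regulatory T and 131 and 141 CPM in CD8 cells. It stood at 138 and 174 CPM in Y-linked CD4 and 38.4 and 29.2 CPM in Y-linked NK cells. Y-linked CD4 cells also held 41 and 1 Lrrc32 UMIs and 32 and 1 Itgb8 UMIs. Thbs1, an activator of the latent form, was lower in regulatory T cells at 9.60 and 22.4 CPM (-1.22, -1.64 to -0.81), and Y-linked cells held 73 and 1 Thbs1 UMIs, a ratio of the other sign (2.24). Regulatory T cells had 0 of 7 higher and 1 lower, CD4 cells 1 and 2 of 6 and NK cells 0 and 1 of 4. With Y-linked regulatory T cells alone 5 of 7 were higher and 1 lower, where 31.7% and 33.2% of all genes were. Of genes that regulate receptors and SMADs, 0 of 14 were higher and 2 lower in CD8, 3 and 4 of 14 in CD4, 1 and 1 of 14 in regulatory T and 1 and 4 of 15 in NK cells, where Tgif1, a corepressor of SMAD targets, was higher at 79.1 and 50.4 CPM (0.65; 0.53 among Y-linked cells, on 7 UMIs labelled WT). Bambi, a decoy receptor, was lower in the CD8 gate at 5.05 and 9.54 CPM (-0.92; -1.08 among Y-linked cells). The SMADs of the bone morphogenetic protein branch had 0 higher and 2 lower of 2 in CD8 and regulatory T cells, 1 and 0 of 2 in CD4 and 0 and 1 of 2 in NK cells. Other receptors of the family had 0 and 0 of 1 in CD8 and regulatory T, 1 and 1 of 2 in CD4 and 0 and 2 of 2 in NK cells.

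Over the 13 gates several pairs of members had levels that ran together. Pearson correlations of log2(CPM + 1), given as a description over 13 gates of which the cells share a library and the depths differ, were 0.95 and 0.93 between Ski and Skil (labelled Dapl1-KO, then WT), 0.94 and 0.86 between Tgfbr1 and Smad3, and 0.91 and 0.86 between Skil and Pmepa1. Other pairs were lower, such as Smad2 with Smad4 (0.54 and 0.26) and Tgfbr2 with Smad7 (0.55 and 0.34). Tgfb1 gave -0.29 and -0.63 with Smad4 and -0.15 and -0.28 with Smad7. Of 5643 genes that reached 20 CPM in any gate of each library, the 3 most like Tgfb1, by the lower of the 2 correlations, were AW112010 (0.89), Il2rb (0.86) and Lgals3bp (0.86). Those most like Smad7 were Tra2b (0.96), Tle4 (0.96) and Zfp36l2 (0.96), those most like Skil were Ddx5 (0.94), Aff1 (0.93) and Tbc1d15 (0.93), and those most like Pmepa1 were Ptger4 (0.90), Itpr2 (0.90) and Gprin3 (0.90).

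Markers of cells that do not belong in these gates were not equal between the libraries, and in some CD8 states the gap was wide. Fibroblast genes summed to 0.839 CPM in the CD8 gate labelled Dapl1-KO and 70.8 CPM in that labelled WT. Of those 4686 UMIs labelled WT, 4627 lay in 7 cells, which also held 62 of 2102 Pmepa1 UMIs of the gate, 47 of them in 1 cycling cell. Without cells that had 3 or more fibroblast UMIs, the Pmepa1 ratio was 0.55 in CD8 and 0.62 in cycling CD8 cells. In the other lineage gates fibroblast genes summed to at most 1.79 CPM. Genes of melanocytes, some of which the gates limit, summed to 9.06 and 3.53 CPM in the CD8, 18.3 and 4.37 CPM in the CD4, 13.9 and 5.07 CPM in the regulatory T and 12.3 and 2.33 CPM in the NK gate. Macrophage genes summed to 83.6 and 12.5 CPM in progenitor-like cells, 109 and 86.9 CPM in effector cells without PD-1 and 34.7 and 137 CPM in PD-1 TIM-3 cells without Gzmk, where gamma-delta T cell receptor genes summed to 32.0 and 0.958 CPM. Those receptor genes summed to 69.7 and 28.3 CPM in progenitor-like, 66.7 and 13.5 CPM in other CD8 and 38.8 and 20.1 CPM in naive or central memory cells. The sums ran the other way in effector cells without PD-1 (34.1 and 39.4 CPM), PD-1 cells without TIM-3 (11.6 and 15.5 CPM) and granzyme D to G rich cells (2.17 and 14.7 CPM). The part of these markers in the ratios of those states was not tested. Of the endothelial genes, Cdh5 was at 0 in all 4 gates, and Kdr was at 0 in NK cells and had UMIs in the other lineage gates. Pecam1 stood at 5.76 and 8.74 CPM in the CD8, 21.4 and 37.0 CPM in the CD4, 14.7 and 14.8 CPM in the regulatory T and 31.8 and 31.8 CPM in the NK gate. The part of endothelial cells in the ratios was not tested. Genes of platelets, which store TGF-beta, summed to under 5 CPM in the CD8 gate of either library. They summed to 6.44 and 10.5 CPM in the CD4, 5.79 and 2.24 CPM in the regulatory T and 0.882 and 1.94 CPM in the NK gate. Other CD8 cells held 5.56 and 21.2 CPM of them, and effector cells without PD-1 10.7 and 9.19 CPM. The part of platelet genes in the ratios was not tested. The NK gate also held gamma-delta T cell receptor genes, at 73.5 and 57.8 CPM in sum; their part in the NK values was not tested.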

How the data were processed

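The deposited files held raw UMI counts per gene and barcode, made by the authors with Cell Ranger 5.0.0 on mm10/GRCm38, per the submitters' processing notes. Barcodes found in both libraries were kept where their UMI total was at least 2 times that of the other copy; 21 unclear ones were dropped. Cells with under 500 genes or over 10% mitochondrial UMIs were removed, then doublets (Scrublet in scanpy 1.11.5, the highest scores at 0.8% per 1000 cells; 9.48% of cells labelled Dapl1-KO and 8.85% labelled WT). Gates were rules on marker UMIs, without clustering. UMIs were summed per library and gate and divided by the gate's total (CPM). Exact Poisson and conditional binomial 95% intervals came from scipy 1.17.1 and cover counting error alone. In ratios of summed counts, a count of 0 was set to 3 UMIs. A log2 ratio at least 0.32 from 0 with 5 CPM or more in a library was called. edgeR 4.0.16 (R 4.3.3) gave TMM scaling factors as an alternative; no count model was fitted, since each label has 1 library. The ratio step was tested on simulated data. Thinning drew 3000 UMIs per cell. Genes of 6 pathway lists were named where they reached 20 CPM in a lineage gate, all members always, and for 4 members the 3 genes with the most similar levels over gates. The members and lists were chosen with earlier results of these data known.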

Additional observations from a re-analysis of the deposited data

Results flagged for a closer look

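Pmepa1, a response gene of TGF-beta that also restrains it, ran in opposite directions between lineages under the same comparison of labels. The log2 ratio (label Dapl1-KO over label WT) was 0.52 in the CD8 gate and 0.78 in NK cells, against -0.37 in regulatory T cells. The difference between these gates was not tested, since each label has 1 library. With Y-linked cells alone the 3 ratios were 0.050 in CD8, 0.78 in NK and -0.69 in regulatory T cells, where 633, 17 and 22 such cells were labelled WT.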

How the results depend on the processing

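No paired analysis was possible because each label has 1 library. Of 143 ratios of members per gate, the alternative value lay within the counting interval of the main ratio for 131 with all barcodes kept, 142 with lineage gates at 2 UMIs, 142 with stricter cell filters, 142 without doublet removal, 135 with means over cells, 140 with TMM scaling, 111 with cells thinned to 3000 UMIs and 67 with Y-linked cells only. Ratios past the limit also had to keep their sign. Smaller ratios could change sign within an interval that spans 0, so these counts do not show that direction held. Called ratios that changed sign with Y-linked cells only were Tgfbr1 in regulatory T (0.29), Smad2 in cycling regulatory T (0.38), Smad2 (-0.28) and Smad3 (0.50) in progenitor-like, Tgfbr2 in PD-1 without TIM-3 (-0.22), Smad3 (0.92), Ski (-0.11) and Pmepa1 (-0.14) in PD-1 TIM-3 without Gzmk, and Pmepa1 in cycling CD8 cells (-0.23). Elsewhere the sign changed for Tgfbr1 in PD-1 TIM-3 cells without Gzmk without doublet removal (0.080), for Smad3 there (1.05) and Smad2 in granzyme D to G rich cells (-0.57) when thinned, for Smad2 in granzyme D to G rich cells with all barcodes (-0.16), for Smad4 there by means over cells (0.19), and for Smad3 in other CD8 cells with stricter filters (-0.011). Members called higher in CD8 cells (3) numbered 1 with Y-linked cells, 5 without cycling cells and 0 at 1.5-fold, and those lower (1) numbered 2 when thinned, 0 without cycling cells and 0 at 1.5-fold. The shares of all genes moved too. Higher and lower shares were 21.6% and 13.6% when thinned, 17.2% and 11.9% without cycling cells and 2.78% and 3.16% at 1.5-fold. In CD4 cells the 2 higher became 1 with all barcodes, stricter filters, 1.5-fold or 20 CPM, and 4 with 2 UMIs or means over cells, and the 1 lower became 0 when thinned, at 1.5-fold or at 20 CPM and 3 with Y-linked cells. Of all genes there, 17.6% and 16.2% were called with all barcodes, 18.4% and 18.9% with stricter filters and 5.71% and 8.03% at 1.5-fold. The shares were 15.8% and 11.4% at 20 CPM and 20.7% and 20.5% with 2 UMIs. They were 20.4% and 22.6% with means over cells and 25.6% and 24.5% when thinned. In regulatory T cells the 0 higher became 1 with means over cells and 5 with Y-linked cells, and the 2 lower became 5 when thinned and 1 with all barcodes, Y-linked cells, 1.5-fold or 20 CPM. Of all genes there, 12.6% were higher and 21.3% lower with means over cells, and 17.5% and 25.1% when thinned. The shares were 7.42% and 13.8% with all barcodes, 2.89% and 5.09% at 1.5-fold and 6.69% and 11.7% at 20 CPM. In NK cells the 2 higher became 4 with Y-linked cells, 5 with TMM and 1 at 1.5-fold, and the 0 lower became 1 when thinned and 1 with Y-linked cells. That Y-linked call was Tgfbr1 (-0.39), from 37 UMIs labelled Dapl1-KO and 0 labelled WT. Its sign came from setting the 0 to 3 UMIs, and the level labelled Dapl1-KO was above that labelled WT. Of all genes there, 19.3% were higher and 19.4% lower with TMM, 5.83% and 10.3% at 1.5-fold and 23.0% and 27.6% when thinned. Y-linked cells alone had 28.7% of all genes higher and 19.9% lower in CD8, 38.8% and 33.2% in CD4, 31.7% and 33.2% in regulatory T and 30.7% and 43.9% in NK cells. Counts of 0 set to 3 UMIs enter these shares, mainly where few cells were labelled WT, and their part was not tested. The causes were not tested. Leaving out fibroblast-marker cells and leaving out cycling CD8 cells were chosen after seeing the data; the first moved none of the 143 ratios beyond its interval, and the second gave 0.70 for Pmepa1 and -0.30 for Smad4 in CD8 cells. Leaving cells with Il2ra or Ikzf2 out of the CD4 gate moved 9 of 20 levels beyond their intervals, with Tgfbr2 at 96.6 and 83.5, Ski at 61.7 and 36.5, Skil at 224 and 168 and Pmepa1 at 113 and 80.4 CPM (labelled Dapl1-KO, then WT). Smad3 was under 5 CPM in 3 CD8 states, and granzyme D to G rich cells held 1 and 4 Smad3 UMIs.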
